A study of Mus musculus with 19 samples.

Results

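Gene expression in the livers of the 5 control mice was set against a reference RNA that was hybridised to the same arrays. The 5 control arrays are all the arrays labelled 0 mg/kg among the 19 arrays of the study, and none of the 14 arrays of dosed animals entered a test, with dosed arrays shown only as values for context or in a named alternative. Every animal was a male of transgenic mouse strain 40.6, aged 10 weeks and sampled 3 days after exposure. DB[a,h]A, that is dibenz[a,h]anthracene, an aromatic hydrocarbon of fused rings, was given to the other groups at 6.25, 12.5 or 25 mg/kg, with 5, 4 and 5 animals. The labels call the tissue part of a liver and name neither a vehicle nor the transgene's promoter. Liver RNA carried the red dye (Cy5). The reference, total RNA pooled by its vendor from 11 mouse cell lines, carried the green dye (Cy3) on every array. A value is the log2 ratio of liver over reference, so 1 unit is a factor of 2 and a ratio above 0 means a brighter liver channel.

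Hepatocytes make up most of the liver's mass. They secrete the carrier, clotting and protease-inhibitor proteins of plasma, detoxify drugs with cytochrome P450 and conjugating enzymes, dispose of nitrogen through the urea cycle and make bile acids. They rarely divide in the adult. Cell lines divide continuously in culture, and many carry mesenchymal cytoskeleton and matrix genes. The liver also holds Kupffer cells, which are its resident macrophages, and a fenestrated endothelium.

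The comparison has limits that apply to every ratio below. The labels describe 1 reference pool, so its own biological spread was not measured, and p-values cover the spread between 5 animals' arrays. Dyes were not swapped, so a dye effect and a difference between liver and reference cannot be told apart. The zero of the ratio was set by loess normalisation, which centres each array at each brightness. With plain median centring in its place, the median ratio of genes measured in both channels moved from 0.0162 to -1.02. In whole tissue, fewer cells of a type and less RNA per cell cannot be told apart.

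The 5 controls lay on 3 slides. Replicate 1 was on slide 3, replicates 2 and 3 were on slide 2, and replicates 4 and 5 were on slide 1, which was scanned 7 days after the others. Well above background were 36.5 to 56.7% of spots in the liver channel and 55.8 to 74.0% in the reference channel. Slide 1 stood apart: spike-in controls had a median log2 ratio of 2.84 and 2.88 on its 2 control arrays and 0.605 to 0.900 on the other 3. Log2 ratios of pairs of controls correlated across the tested probes at 0.985 and 0.973 within a slide and at 0.949 to 0.979 between slides.

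Of 15709 genes tested, 10146 were well above background in both channels on all 5 arrays, and these are called measured genes here. Among them 4222 (41.6%) were higher in liver and 4100 (40.4%) were lower at an adjusted p under 0.05 in limma. Past a 2-fold difference, tested with limma's treat, 1779 genes (17.5%) were higher and 1333 (13.1%) were lower. Over all probes tested, unnamed ones included, 69% were called: 30.8% were higher in liver and 38.2% lower, and past 2-fold 8.75% were higher and 9.73% lower. Median centring left the total near the same but turned the split: 44.6% of called probes were higher in liver with loess and 20.8% with median centring. Past 2-fold, 6742 probes were called with loess, 10805 with median centring (17.2% higher in liver, against 47.3%) and 11455 with the scanner software's processed signals. Median centring moves ratios down, so the directions of genes up to about 1 unit above 0 depended on the centring, while the families described first lay far outside that range. A further 88 genes were above background in liver on every array and in the reference on none, and 984 genes showed the reverse.

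The genes most in excess in liver encoded secreted plasma proteins and enzymes. Akr1c6, a hydroxysteroid dehydrogenase, had the highest ratio of all measured genes, each taken on its brightest probe. Its log2 ratio was 11.10, 10.42, 10.03, 12.74 and 12.18 on replicates 1 to 5, a mean of 11.29 ± 1.15 (SD, n = 5). All 5 livers were far above the reference, and the 2 arrays of slide 1 were the highest. Mup5, a major urinary protein that binds pheromones, averaged 10.95 ± 1.01. Ambp, the precursor of alpha-1-microglobulin, averaged 10.68 ± 1.05, and Rgn, the calcium-binding protein regucalcin, averaged 10.48 ± 0.87. The remaining 6 of the top 10 were Pzp, Serpinc1 (antithrombin), Aadac, Serpina3k, Fgg (fibrinogen gamma chain) and Mup3, at means of 10.16 to 10.45. Each of the 10 had an adjusted p of 3.2e-07 or below for the ratio, and on each of them both slide 1 arrays exceeded the other 3. The reference channel was dim for some of them, with levels (log2 intensity) of 5.24 to 6.72 in Aadac and 5.33 to 7.11 in Rgn. It was brighter in Ambp, at 7.25 to 9.65. In C9, which had no reference signal above background, it was 4.67 and 4.97 on slide 1 and 5.67 to 5.97 elsewhere. How far the dim end of the reference channel sets these ratios, their order and the slide 1 difference was not tested.

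**Figure D1:**
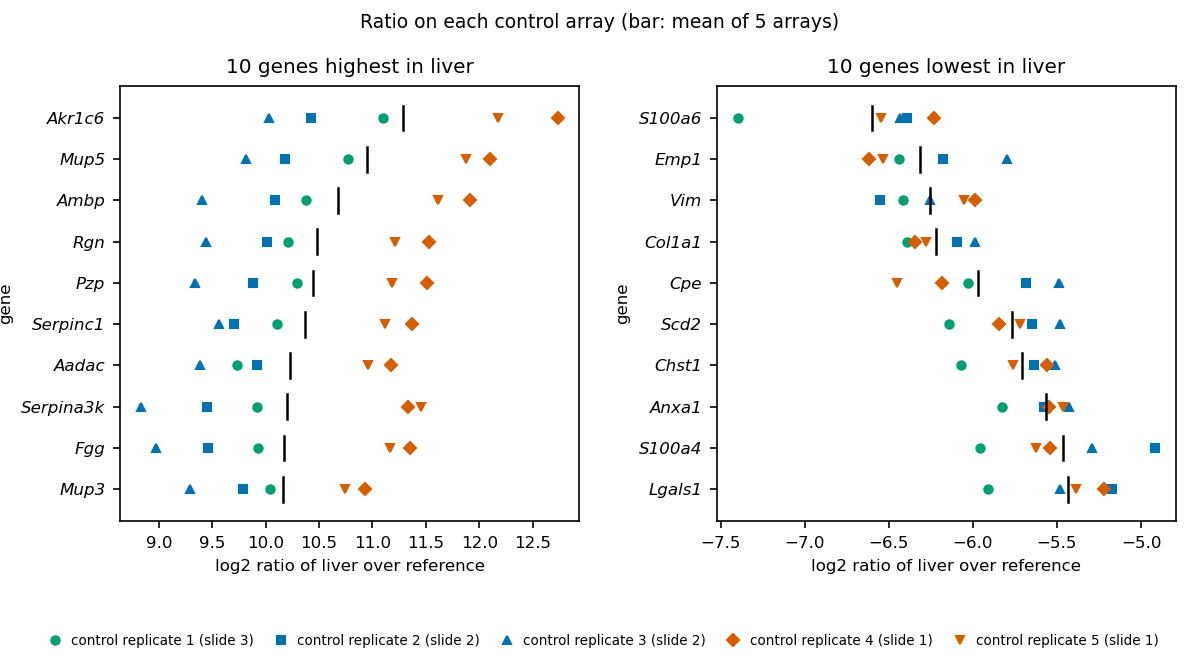
Log2 ratio of liver over reference (x axis) on each of the 5 control arrays for the 10 measured genes with the highest mean and the 10 with the lowest, with a bar at the mean. Colours mark the slide. On the left the orange points of slide 1 lie to the right of the other 3 arrays for every gene (Akr1c6: 12.74 and 12.18 against 10.03 to 11.10), and on the right the slides intermingle for most genes.

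Genes for plasma proteins were higher in liver throughout. All 31 measured members of the albumin, carrier and apolipoprotein list were higher, with a median log2 ratio of 7.41, against 41.6% of measured genes. Alb itself, the main carrier protein of plasma, had log2 ratios of 6.93, 6.78, 6.39, 7.92 and 7.90, lowest on slide 2 and highest on slide 1. Apoh and Hpx, a phospholipid-binding and a haem-binding plasma protein, averaged 10.10 ± 0.76 and 9.32 ± 0.73. All 23 measured coagulation genes were higher (median 6.98), led by Serpinc1, Fgg and the kininogen gene Kng2 at 9.35 ± 0.67. All 16 measured complement genes were higher (median 6.37), with C4bp, a regulator of complement, at 9.07 ± 0.63 and C8b, a component of the membrane attack complex, at 8.67 ± 1.01. The 11 measured serpins of clade A had a median of 7.84. The 6 measured major urinary protein genes had a median of 8.33. These last 2 families hold near-identical gene copies, so signal may be shared between some members. The 2 probes of Mup20 (darcin) gave 9.06 and 12.08.

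The acute phase list was split. Of its 12 measured members 8 were higher, among them Orm2, an orosomucoid, at 8.27 ± 0.59 and Fgl1, a fibrinogen-like hepatokine, at 7.78 ± 0.48. The other 4 were lower. Both metallothioneins, which buffer zinc and copper, were far below the reference: Mt1 had log2 ratios of -4.69, -4.13, -4.08, -3.97 and -4.05, and Mt2 averaged -4.37 ± 0.27. Their 5 arrays lay close together, and no array approached 0.

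Drug metabolism followed the same direction as plasma proteins. Of 26 measured members of cytochrome P450 family 2, 25 were higher (median 6.47), led by Cyp2c54 at 9.68 ± 0.99 and Cyp2c29 at 8.89 ± 0.79, both of the Cyp2c group that oxidises drugs and fatty acids. Cyp2c55 was the exception at -0.41 ± 0.18 (adjusted p = 0.00404). All 13 measured members of families 1, 3 and 4 were higher (median 6.31), with Cyp3a25, of the main drug-oxidising subfamily, at 9.29 ± 0.99. In the conjugation list 31 of 34 were higher and 2 were lower (median 4.35): Ugt2b5, a glucuronosyltransferase, stood at 9.34 ± 0.77 and Gsta3, a glutathione transferase, at 8.53 ± 0.42, against -0.59 ± 0.15 for Gstm5 and -0.56 ± 0.19 for Gsto1. Copies within the Cyp2c, Cyp3a and Ugt2b clusters resemble each other in sequence, and the probes of Cyp2c54 ranged from 6.07 to 9.68.

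Several detoxification genes had no reference signal above background, so only a lower bound of the fold is given. It sets the mean liver level against the dimmest reference signal that still counted as above background, or the probe's own signal where that was higher. These genes entered the test through their liver signal alone, so their p-values add no support to the direction. Ugt2b1 was at least 342-fold higher in liver (adjusted p = 1.18e-07 in limma), and Cyp3a11, the mouse counterpart of the main human drug-oxidising P450, at least 314-fold (adjusted p = 6.7e-07). Ugt2a3 was at least 190-fold higher, and Slc2a2, the hepatocyte glucose transporter GLUT2, at least 162-fold. F13b, Ugt2b35, C9, Mal2, Slco2b1 and Sult1d1 completed the 10 largest bounds, from 116-fold for F13b down to 58.7-fold for Sult1d1.

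Metabolic genes of the hepatocyte were also higher in liver. All 49 measured genes of the urea cycle and amino acid breakdown were higher (median 5.32), with Aass, the first enzyme of lysine breakdown, at 8.78 ± 0.66 and Otc, which makes citrulline, at 8.70 ± 0.73. In gluconeogenesis and glycogen metabolism 21 of 22 were higher (median 4.32), with Adh4, an alcohol dehydrogenase, at 9.02 ± 0.85 and Pck1, which commits carbon to glucose synthesis, at 8.67 ± 0.88. All 20 measured bile acid genes were higher (median 5.22), including Slco1b2, a bile acid uptake transporter, at 9.62 ± 0.80. Fatty acid oxidation (36 of 36 higher, median 2.96) and lipid synthesis (39 of 40 higher, median 2.60) came next. Srebf2, a regulator of cholesterol synthesis, was the lower member of the latter at -0.95, -0.90, -0.90, -0.11 and 0.005, a mean of -0.57 ± 0.47 (adjusted p = 0.0177), with slide 1 near 0. The call was lost without replicate 1, 2 or 3 (adjusted p = 0.0582 to 0.0664). Markers of both ends of the liver lobule were present: all 18 measured periportal genes (median 6.82) and all 18 pericentral genes (median 5.09) were higher, with Glul, the glutamine synthetase of the cells around the central vein, at 5.46 ± 0.30.

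Transcription factors of the hepatocyte were less uniform. Of 21 measured factors 16 were higher and 4 were lower, with a median of 4.55. Hnf4a, a nuclear receptor that sustains hepatocyte identity, had log2 ratios of 5.18, 5.28, 4.73, 6.31 and 6.13. Ppara, the fatty acid sensor, averaged 6.73 ± 0.65, Nr1i3 (the drug sensor CAR) 5.98 ± 0.60, and Cebpa 5.48 ± 0.38. Nr2f1, an orphan nuclear receptor, and Cebpd, an inflammation-responsive factor, went against them at -2.85 ± 0.33 and -2.84 ± 0.44. Among receptors and secreted growth factors 23 of 25 were higher. The glucagon receptor gene Gcgr averaged 7.81 ± 0.58, and Igf1, the circulating growth factor that liver supplies, had log2 ratios of 6.29, 5.97, 5.86, 6.30 and 6.12. The 5 livers lay close together in Igf1, with an SD of 0.20.

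**Figure D2:**
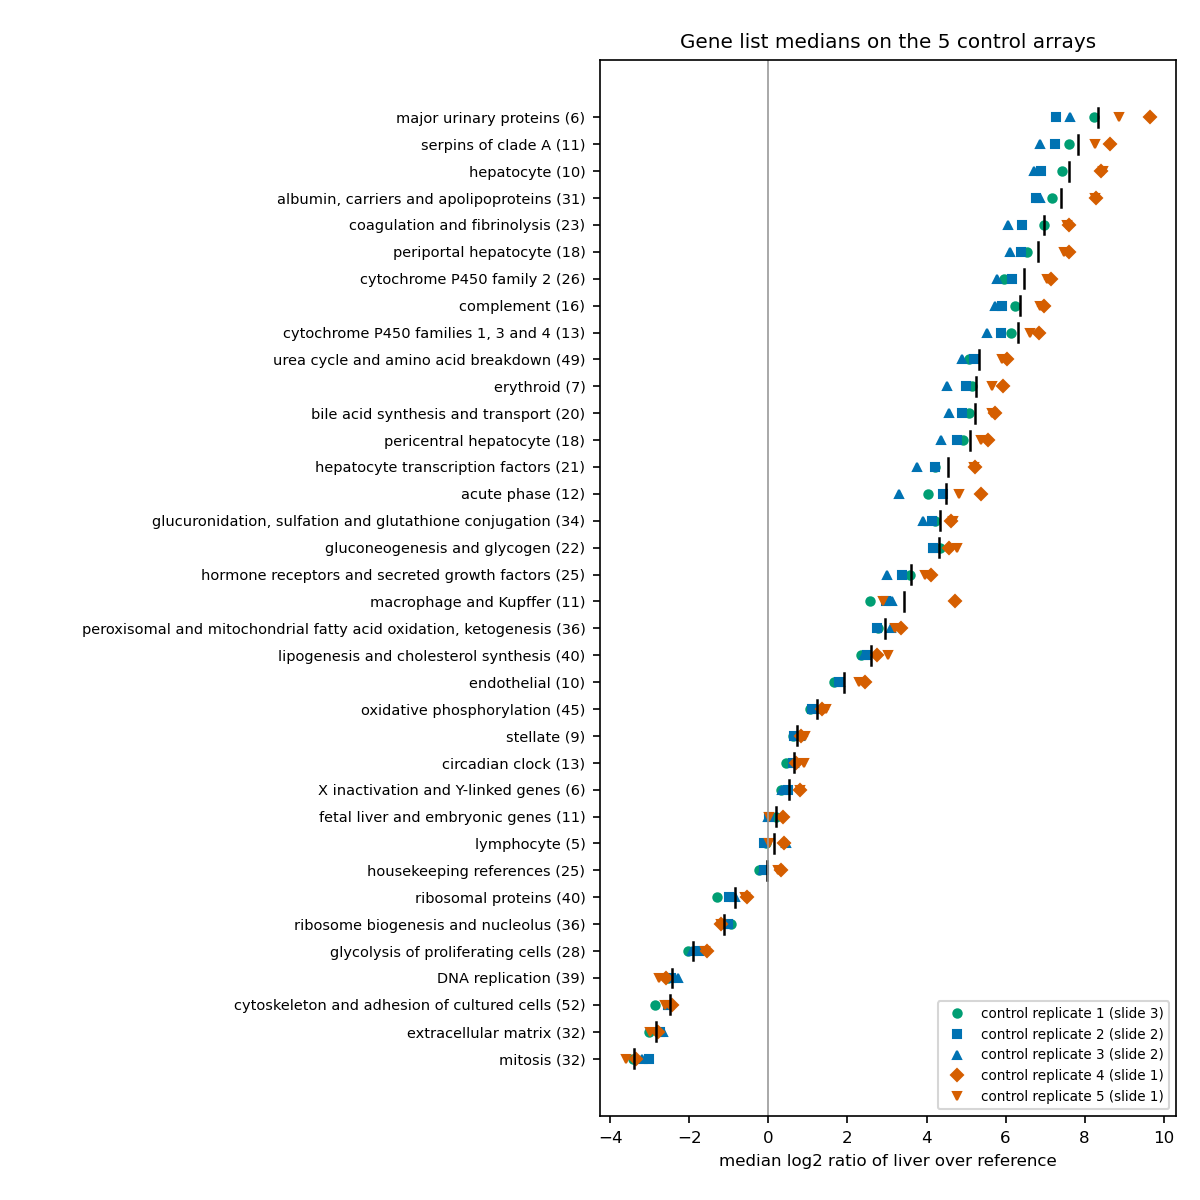
Median log2 ratio of liver over reference (x axis) in each gene list on each of the 5 control arrays, with the number of measured members in parentheses and a bar at the median of the members' means. Lists with at least 5 measured members are drawn. Plasma proteins lie at the top (major urinary proteins 8.33) and mitosis at the bottom (-3.40), and the orange points of slide 1 lie outermost for the lists at the top.

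The 10 genes furthest below the reference included genes of calcium-binding, intermediate filament and collagen proteins and also enzymes, a membrane protein and a lectin. S100a6, a calcium-binding protein, had the lowest ratio, at -7.40, -6.39, -6.43, -6.23 and -6.55, a mean of -6.60 ± 0.46, or 97.1-fold lower in liver. Emp1, a membrane protein, averaged -6.31 ± 0.33, Vim, the mesenchymal intermediate filament vimentin, -6.25 ± 0.24, and Col1a1, a chain of type I collagen, -6.22 ± 0.17. Cpe, Scd2, Chst1, Anxa1, S100a4 and Lgals1 filled the rest of the bottom 10, at means from -5.97 to -5.43. In the cytoskeleton and adhesion list 43 of 52 measured genes were lower (median -2.50), against 40.4% of measured genes. Tpm1, an actin-binding tropomyosin, was called higher at 3.06 ± 0.22 on its brightest probe, yet its 5 probes ran from -2.51 to 3.06 and their mean was -0.71, so no direction is given for the gene. Tubb2a, a beta-tubulin, was higher at 2.17 ± 0.31.

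Of 32 measured matrix genes 28 were lower (median -2.85), among them the fibrillar collagens Col3a1 at -4.36 ± 0.39 and Col1a2 at -4.28 ± 0.48. A pair of matrix genes was higher in liver. Col18a1, whose product sits in vascular and epithelial basement membranes, had log2 ratios of 3.59, 3.71, 3.88, 4.22 and 4.16, and Lum, a collagen-binding proteoglycan, had 1.55, 1.77, 2.15, 1.84 and 2.07. A further 7 matrix genes were above background in the reference alone, among them Lox, which crosslinks collagen, at least 18.6-fold lower in liver.

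Cell division genes were low in all 5 livers. All 32 measured mitosis genes were lower (median -3.40), and 14 more were above background in the reference on every array and in liver on none. Mki67, the proliferation marker Ki-67, had log2 ratios of -5.27, -4.66, -4.91, -5.59 and -5.85. Birc5 (survivin), Racgap1 and Ccna2 (cyclin A2), all needed for division, averaged -4.99 ± 0.29, -4.97 ± 0.40 and -4.62 ± 0.60. In DNA replication 37 of 39 measured genes were lower (median -2.45), led by Rrm2, a subunit of the enzyme that makes deoxynucleotides, at -5.10 ± 0.37. Mcm10, a replication initiation factor, was the exception at 2.99, 2.27, 2.35, 2.70 and 2.50, on a single probe. Among genes above background in the reference alone, Ifi202b was at least 60.0-fold lower in liver and Uhrf1, which maintains DNA methylation, at least 46.7-fold. The 2 probes of Uhrf1 gave -5.54 and -0.81. Thbs1, Fhl2, Fos, Ccl7, Clec4d and Kif20b had bounds of 26.0-fold to 18.8-fold. Of 29 Hox genes tested, which pattern the embryonic axis, 1 was above background in liver on all 5 arrays (Hoxb4, -0.88 ± 0.21) and 14 were above background in the reference alone.

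Promoters of the genes highest in liver held few CpG dinucleotides, given here as a description with no test. RefSeq promoters (GRCm38.p6, the 250 bases before the annotated start, first start listed for a gene) were matched for 8153 of the 10146 measured genes. The median number of CpG dinucleotides in the window was 3 for the 184 matched genes with a mean ratio above 6, 16 for the 1057 matched genes lower past 2-fold and 16 for the 5689 not past 2-fold. Windows with 5 or fewer CpGs made up 76.1%, 13.5% and 12.6% of these sets, 49.5% of all 27025 promoters in the table and 1.96% of the 51 matched mitosis genes. Lists in this paragraph hold all their tested genes, also those that were not measured in both channels. The TATA box letters TATAAA, on either strand, occurred in 22.3% of the promoters with a ratio above 6, 6.05% of those not past 2-fold and 13.0% of all promoters. Among lists it varied, from 58.3% of the 24 matched cytochrome P450 family 2 genes and 24% of the 25 carrier and apolipoprotein genes to 4.55% of the 22 coagulation genes. The letters CCAAT occurred in 72.5% of mitosis promoters and 34.5% of all promoters, and TTTGAA, the core of the cell cycle homology region, in 37.3% and 16.3%. Neither was particular to mitosis: CCAAT occurred in 61.5% of DNA replication and 59.0% of urea cycle promoters, and TTTGAA in 33.3% of cytochrome P450 family 2 and 12.8% of DNA replication promoters. GC boxes (GGGCGG) were in 20.1% of the promoters with a ratio above 6 and 65.8% of those lower past 2-fold. CpG content and GC box counts share the same base composition.

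The 120 bases before the start are shown for 5 genes, 5′ to 3′ on the gene's strand, chosen after their letters and values were seen because they carry these features. Capitals mark matches, on either strand, to the TATA box (TATAAA), the CCAAT box, the cell cycle letters TTTGAA, the C/EBP type (TTGCNNAA), the FOXA type (TGTTTAC), the HNF4 type (CAAAGTCCA) or the E2F type (TTTNNCGC), overlaps included.
Alb, chr5:90460750-90460869, plus strand: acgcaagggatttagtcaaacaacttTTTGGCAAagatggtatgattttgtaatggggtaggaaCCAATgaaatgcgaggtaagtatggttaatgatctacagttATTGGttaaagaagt
Akr1c6, chr13:4434223-4434342, plus strand: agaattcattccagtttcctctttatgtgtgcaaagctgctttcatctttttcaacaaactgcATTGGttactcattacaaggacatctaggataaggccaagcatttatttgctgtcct
Cyp2e1, chr7:140763699-140763818, plus strand: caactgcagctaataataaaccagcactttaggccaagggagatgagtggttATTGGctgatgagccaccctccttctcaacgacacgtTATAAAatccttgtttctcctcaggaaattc
Cdc20, chr4:118437344-118437463, minus strand: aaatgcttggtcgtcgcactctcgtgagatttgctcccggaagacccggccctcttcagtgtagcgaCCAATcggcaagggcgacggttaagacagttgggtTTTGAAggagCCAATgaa
Top2a, chr11:99024190-99024309, minus strand: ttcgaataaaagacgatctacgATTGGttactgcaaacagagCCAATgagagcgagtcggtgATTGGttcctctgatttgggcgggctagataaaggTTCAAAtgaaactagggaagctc
The Alb promoter has 2 CpGs in its 250 bases, and Cyp2e1 (8.55 ± 1.16), a P450 of the pericentral zone, holds TATAAA 31 bases before the start. Akr1c6, the gene of highest ratio, has 0 CpGs in its 250 bases. The activator of chromosome separation Cdc20 (-3.98 ± 0.65) has 21 CpGs, and the topoisomerase gene Top2a (-3.85 ± 0.57, above background in 3 of 5 livers) has CCAAT letters 3 times and the TTTGAA letters once. A match is a description of the letters in this window.

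Between these extremes lay families that differed by less. Glycolysis genes of proliferating cells were lower in 24 of 28 cases (median -1.92). They included Slc2a1, the GLUT1 glucose transporter of most cultured cells, at -4.32 ± 0.26, and Pkm, the pyruvate kinase gene of proliferating tissue, at -4.02 ± 0.25. Hk1, a hexokinase, stood at -4.29 ± 0.24 on its brighter probe and at -1.10 on the other. Ribosome biogenesis (33 of 36 lower, median -1.12, with Npm1 at -2.79 ± 0.17) and ribosomal proteins (35 of 40 lower, median -0.85) were modestly lower, and 45 of 45 oxidative phosphorylation genes were higher (median 1.23), led by Uqcrq, a subunit of complex III, at 2.49 ± 0.33 and Sdhb, of complex II, at 2.47 ± 0.21. The 25 housekeeping references had a median of -0.05, with 10 higher and 9 lower. Under median centring the oxidative phosphorylation median was 0.02, against -1.02 for all measured genes, so the list stayed above measured genes as a whole but its direction against the reference depended on the centring. Of named members that went against these lists, Rps2, Rps27l, Nop10, Nop16, Shmt2 and Taldo1 were below 0 under median centring, so no direction is given for them.

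The defining markers of hepatocytes were present in every control liver. All 10 hepatocyte markers were measured and higher, with a median of 7.61. Endothelial markers included Clec4g, a lectin of the liver sinusoid, at 6.35, 5.89, 5.67, 7.16 and 7.08, and Stab2, a scavenger receptor of the same cells, at 5.19 ± 0.27, and 10 of 10 measured members of that list were higher. Stellate cell markers were mixed (6 of 9 higher and 1 lower), with Colec11 at 5.30 ± 0.47 and Pdgfrb at -1.89 ± 0.47. All 7 measured members of the red cell list, which holds haemoglobin genes and red cell enzymes, were higher (median 5.26), with Alas2, the first enzyme of haem synthesis in red cells, at 6.03 ± 0.74. Of 4 measured bile duct markers 3 were lower and 1 was higher (median -2.21): Krt19 stood at -3.59 ± 0.14 and Spp1 at -3.46 ± 0.28, against 1.30 ± 0.17 for Pkhd1. Epcam was above background in 1 of 5 livers. No skeletal or heart muscle marker was above background in liver on all 5 arrays, and 3 of the 8 pancreas markers tested were. All 3 measured kidney markers were higher than the reference (median 0.704, 1 of them past 2-fold), and of 3 measured adipose markers 2 were higher and 1 was lower (median 2.43). The part of other tissues in these values was not tested. Of the Y-linked genes, Eif2s3y averaged 2.38 ± 0.32 and Ddx3y 1.56 ± 0.23. Afp, a fetal liver protein, was slightly below the reference at -0.81 ± 0.44.

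The 5 control livers were alike for most genes. The SD of the log2 ratio over the 5 arrays had a median of 0.225 across the 10146 measured genes. It exceeded 0.5 for 914 genes (9.01%) and 1 for 50 genes. Within the pairs of animals that shared a slide the median SD was 0.142. The median SD was 0.219, 0.217 and 0.209 in the groups at 6.25, 12.5 and 25 mg/kg. Taken separately after quantile scaling between arrays, the liver channel varied by a median SD of 0.202 and the reference channel by 0.148. The labels describe the reference RNA alike for every array, without saying whether 1 lot served them all. Each channel level was derived from the normalised ratio and the mean brightness of both channels. The reference SD is therefore not free of the liver signal. The liver SD was more than 2 times the reference SD for 3170 genes (31.2%), and the reverse held for 985 (9.71%).

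The spread grew with the ratio and followed the slide. Median SD was 0.201 for the 5900 genes with ratios between -1 and 1, 0.528 for the 443 between 4 and 8, and 0.789 for the 63 above 8. The corresponding SDs within slides were 0.131, 0.190 and 0.271. Ratios were wider on slide 1: the median difference between slide 1 and slide 2 was 0.94 for ratios between 4 and 8 and 1.5 for those above 8. An F test for slide in limma called 1007 of 11648 genes tested (8.65%; 9.12% of probes). Of the 755 called genes that were measured in both channels, 341 had a mean ratio above 2, against 1209 of all 10146 measured genes, and 338 of the 341 were highest on slide 1. Of all 755, 610 were highest and 141 lowest on slide 1. A mean ratio below -2 was found in 34, of which 29 were lowest on slide 1. With all 5 controls 2029 of 22238 probes passed, and 3281 of 22241 passed without replicate 1. With dose group and all 19 arrays in the fit 13211 of 21909 passed. Leaving out replicate 2, 3, 4 or 5 leaves another slide with 1 control array and less spread within slides to measure. The count was lower in each of those fits than with all 5 controls, and they cannot show whether it rests on single arrays. The fit without replicate 1 held slides 1 and 2 alone, so its count is no like-for-like comparison either. With the scanner software's processed signals of the 5 controls 0 probes passed.

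For plasma protein genes most of that spread lay in the reference channel. Across the 31 albumin, carrier and apolipoprotein genes the median SD was 0.148 in the liver channel and 0.576 in the reference channel. In Mup5 the liver channel level (log2 intensity) had an SD of 0.09 and the reference level one of 1.08. In Akr1c6 the SDs were 0.17 and 1.02, and in Cyp2e1 0.09 and 1.13. Serpina1d, an alpha-1-antitrypsin gene, had ratios of 7.71, 7.34, 6.88, 9.54 and 9.76 with SDs of 0.11 and 1.27. In these genes the livers differed less in channel intensity than in ratio. The reference level ran from 5.59 to 7.99 in Akr1c6 and from 7.07 to 9.47 in Mup5. It was brighter in Cyp2e1, at 9.05 to 11.71, and in Serpina1d, at 9.28 to 12.15. Whether the 5 animals differ in these genes beyond the spread of the reference was not tested.

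**Figure D3:**
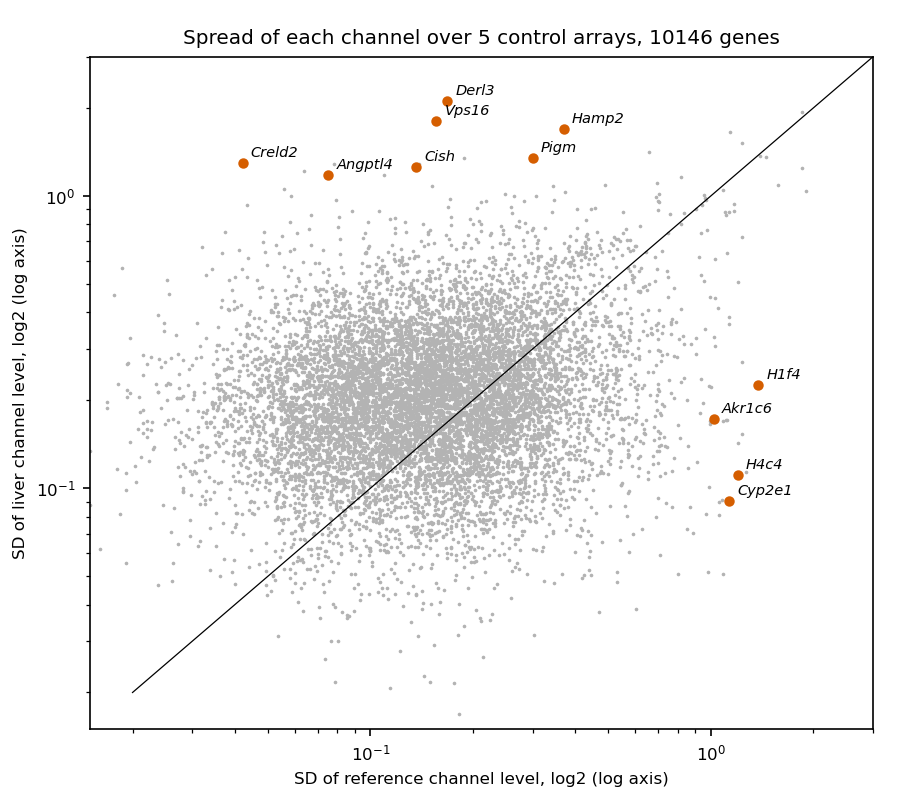
SD over the 5 control arrays of the liver channel level (y axis) against that of the reference channel level (x axis), both in log2 units on log axes, for 10146 measured genes, with the line of equal SD. Derl3, Vps16, Hamp2, Cish and Creld2 lie far above the line, with a liver SD above 1, while H1f4, H4c4, Cyp2e1 and Akr1c6 lie far below it.

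A few replication-dependent histone genes differed sharply by slide. H1f4, a linker histone, had log2 ratios of -3.20, -2.48 and -2.39 on replicates 1 to 3 and -0.34 and -0.29 on replicates 4 and 5, with the slide F test at an adjusted p of 0.0121. H4c4, a histone H4 gene, had -2.92, -2.82, -2.85, -0.65 and -0.51 (adjusted p = 0.0121). The liver channel did not follow this pattern: the H4c4 liver level was 11.31 to 11.59 on all 5 arrays. The H4c4 reference level was 14.15 to 14.43 on slides 2 and 3, and 12.04 and 12.10 on slide 1. H4f16, H4c12 and H4c14 had the same order, and histone H4 copies may share signal. On the dosed arrays H4c4 ran from -3.10 to -2.64 on slides 2 and 3 (11 arrays) and from -0.48 to 0.05 on slide 1 (3 arrays), so the gap was also present in animals outside the control group. In a list of histone genes drawn up after these values were seen, 18 of 25 measured members were lower. H2bc4 went against them at 3.62 ± 0.17, on every slide. Of the 25, 22 were higher on slide 1 than on slide 2, against 5730 of all 10146 measured genes. The median difference was 0.489, against 0.059 over all measured genes. The list median was -2.34, -2.33 and -2.35 on replicates 1 to 3 and -0.61 and -0.65 on replicates 4 and 5. Most of the list thus shared the direction of the gap, which was larger in H1f4 and H4c4 than in the median member. H1f4 and the 4 histone H4 genes named above made up 5 of the 10 genes with the smallest slide F p. The others included Serpina1d, Ttc36, Csrnp3 and Meg3.

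Meg3, an imprinted noncoding RNA, was called for slide through a single animal. Its log2 ratio was 2.65 on replicate 1, the only array of slide 3, and 0.03 to 0.60 on the other 4. The difference lay in the liver channel, at 10.57 against 8.02 to 8.34. On dosed arrays Meg3 ran from -0.48 to 1.74 on slide 3 (5 arrays), from -0.04 to 1.53 on slide 2 (6 arrays) and from -0.04 to 1.32 on slide 1 (3 arrays), so no other array of slide 3 reached the value of replicate 1. A second probe of Meg3 gave a mean of -0.30.

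**Figure D4:**
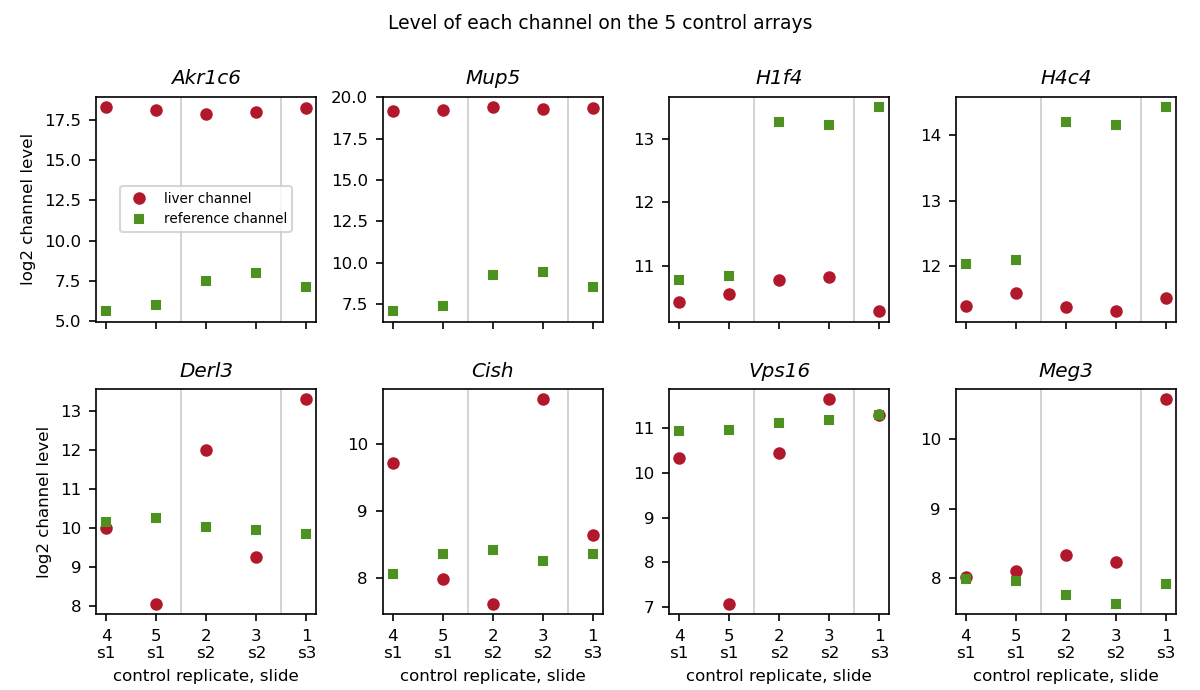
Log2 level of the liver channel (red circles) and of the reference channel (green squares) on each of the 5 control arrays, ordered by slide, for 8 genes. In the top row the liver points are level while the reference points differ on slide 1 (H4c4 reference: 12.04 and 12.10 against 14.15 to 14.43), and in the bottom row the reference points are level while the liver points scatter (Derl3 liver: 8.05 to 13.30).

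Other genes varied between livers on a steady reference. Derl3, which helps clear misfolded proteins from the endoplasmic reticulum, was the most variable gene at 3.46, 1.97, -0.69, -0.15 and -2.21, with an SD of 2.24. Its liver level ran from 8.05 to 13.30 and its reference level from 9.84 to 10.26, and animals on one slide differed by 2.66 (replicates 2 and 3) and 2.06 (replicates 4 and 5). Creld2, another gene of that compartment, had 2.26, 1.63, -0.54, 0.12 and -0.54. In both genes replicates 1 and 2 were the highest. In a list of endoplasmic reticulum folding genes drawn up after these values were seen, 25 of 29 measured members were higher in replicate 2 than in replicate 3, by a median of 0.56, and 27 were higher in replicate 4 than in replicate 5, by 0.33. Across all measured genes the medians of the same differences were -0.002 and 0.021.

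Further genes varied between animals, some of them chosen after their values were seen. Cish, an inhibitor of growth hormone and cytokine signalling, had 0.29, -0.80, 2.42, 1.66 and -0.37, so that replicates 3 and 4 stood above the other 3. Gadd45g, a growth arrest gene, was 0.55 on replicate 3 and -2.51 to -1.95 on the other 4, and Phlda1 was 2.05 on replicate 3 and -0.35 to -0.02 elsewhere. Angptl4, an inhibitor of lipoprotein lipase that responds to fasting, was -0.68 on replicate 2 and 1.67 to 2.17 on the rest. Cyp2b10, a target of CAR, had 2.40, 1.56, 2.38, 5.32 and 3.72, and Hamp2, a hepcidin gene, had 2.92, 4.21, 2.42, 5.39 and 5.65. On dosed arrays Hamp2 ran from 5.27 to 5.60 on slide 1 and from 3.92 to 4.76 on slides 2 and 3. Its high values on replicates 4 and 5 therefore cannot be told apart from a slide difference, while replicates 2 and 3 differed within a slide. Dosed arrays spanned -1.68 to 4.30 for Cish, -2.6 to 0.75 for Gadd45g and -0.07 to 2.57 for Phlda1. They spanned -0.04 to 2.96 for Angptl4, above its value on replicate 2, and -0.03 to 3.33 for Cyp2b10. The highest 2 control values of Cyp2b10 thus lay above all 14 dosed arrays. Vps16, a vacuolar sorting gene, was -3.88 on replicate 5 and -0.68 to 0.46 on the others, with a liver level of 7.07 against 10.34 to 11.65. Low values of Vps16 also occurred in dosed animals, whose arrays ran from -3.86 to 0.39. Pigm, of the GPI anchor pathway, was 3.40 on replicate 4, -0.47 to 0.73 on the other controls and -0.70 to 0.06 on dosed arrays.

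Macrophage markers were highest in 1 liver. Of the 11 measured members of the macrophage and Kupffer list 8 were higher than the reference and 1 was lower, with a median of 3.43. Cd5l, secreted by tissue macrophages, had log2 ratios of 5.83, 5.94, 5.91, 7.99 and 6.33, and Clec4f, a lectin specific to Kupffer cells, had 5.72, 5.75, 5.41, 7.59 and 6.45. Folr2, a folate receptor of resident macrophages, had 2.56, 2.98, 3.56, 5.15 and 2.90, and the scavenger receptor gene Marco had 1.06, 1.37, 1.79, 3.60 and 1.04. Replicate 4 was the highest of the 5 for all of these, and all 11 list members were higher in replicate 4 than in replicate 5 of the same slide, by a median of 1.30. The list median was 4.72 in replicate 4 and 2.56 to 3.13 in the other 4. Endothelial (0.08) and hepatocyte (-0.0045) markers had medians near 0 for the same difference. Cd14, a receptor for bacterial lipopolysaccharide, was below the reference in all 5, at -3.80 ± 0.52. In dosed animals Clec4f ran from 5.14 to 6.98 and Folr2 from 0.40 to 3.44.

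**Figure D5:**
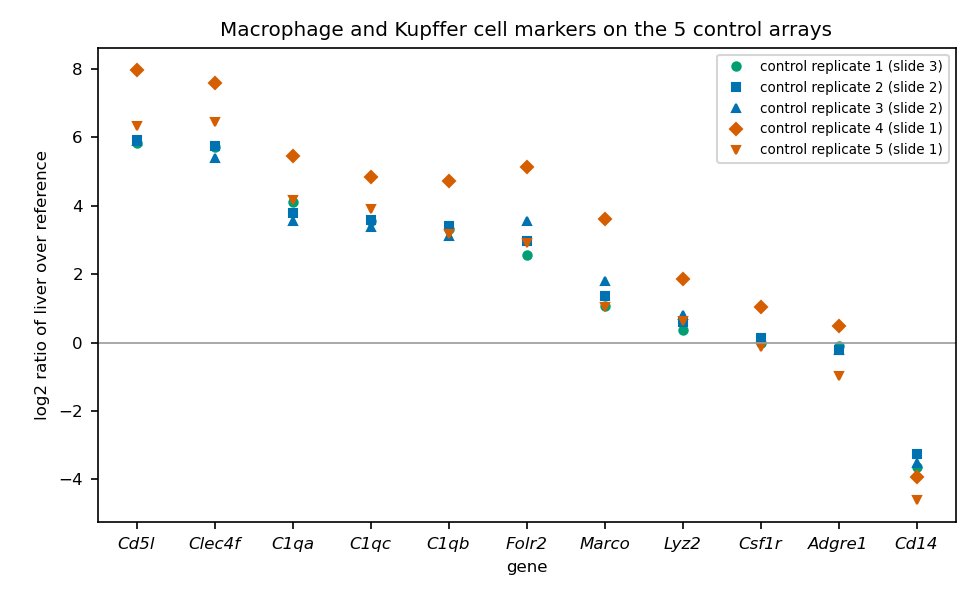
Log2 ratio of liver over reference (y axis) on each of the 5 control arrays for the 11 measured macrophage and Kupffer cell markers (x axis). Replicate 4 (orange diamond) is the highest point for 10 of the 11 genes, the exception being Cd14, while replicate 5 of the same slide lies among the others for most.

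Lipid and clock genes were among the lists that separated replicates 4 and 5. In the lipid synthesis list 8 of 40 measured genes were higher in replicate 4 than in replicate 5, with a median difference of -0.24. Over all measured genes 5505 of 10146 were higher, with a median of 0.021. Other lists differed too: 8 of 45 oxidative phosphorylation genes (median -0.04) and 29 of 32 mitosis genes (median 0.25) were higher in replicate 4. Among its members Scd1, the main desaturase of liver, had 4.29, 4.78, 5.38, 5.71 and 6.26. Insig1, which restrains sterol synthesis, had 1.93, 2.85, 2.20, 4.22 and 4.45, so that slide 1 stood above the rest and replicates 4 and 5 lay close together. Its reference level was 8.14 to 8.53 on slides 2 and 3, and 6.89 and 6.99 on slide 1. For the 13 measured clock genes the median difference was -0.29, and 4 were higher in replicate 4. Dbp, a clock output factor chosen after its values were seen, had -2.21, -1.34, -1.83, -2.51 and -1.08. The dosed arrays ran from -0.82 to 2.71, and how many other genes separate the groups in this way was not counted. No time of day is given in the labels.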

How the data were processed

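Liver RNA of 19 mice, the controls among them, was hybridised to Agilent 2-colour arrays, 1 animal to an array, per the labels. The deposited spot values are intensities on a linear scale that the file headers credit to Agilent's Feature Extraction software, version 10.7.3.1, with probe intervals on mouse build mm9. The authors also deposited a table of log2 ratios. Its column medians were -0.0343 to -0.0189 and its values correlated with loess-normalised ratios without background correction at 0.9924 to 0.9959. How it was scaled is not given in the sources used here.

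Median spot signals of both channels were background corrected (normexp, offset 50), loess normalised within each array and averaged over the spots of a probe, after control spots and outlier spots were left out. Channel levels were scaled between all 19 arrays (Aquantile). Probes were tested where over a share of 0.5 of their spots lay well above background in either channel on at least 3 of the 5 control arrays (36477 probes). The mean log2 ratio was tested against 0 with limma 3.58.1 in R 4.3.3 (lmFit, eBayes), against a log2 limit of 1 with treat, and for slide with an F test in probes well above background in liver on at least 4 arrays. P-values were two-sided and adjusted by Benjamini-Hochberg over all probes, at a threshold of 0.05, and these p-values are not the authors'. The fits were tested on simulated data. The outlier spots left out made up 0.623% of spots over all 19 arrays, and each fit used the arrays that had a value.

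Probes were named through a RefSeq table by transcript accession, which named 47.4% of 55681 probes, and the other probes went unnamed here. A few genes that the rule below names are not reported here. A gene's value came from its tested probe of highest mean intensity. Named were the 10 genes highest and the 10 lowest in ratio among measured genes, the 10 largest bounds each way, up to 6 leading and 2 opposing members of a list, markers, the 20 genes of largest SD and the 10 of smallest slide p. Further genes, Top2a, Epcam, Hoxb4, Gadd45g, Phlda1, Insig1, Scd1 and Dbp among them, were chosen after their values were seen. The members and lists were chosen with earlier results of these data known. The lists of histone and endoplasmic reticulum folding genes were drawn up after the values of H1f4, H4c4, Derl3 and Creld2 were seen. Alternatives covered background correction, signals, normalisation, the deposited table, filters, the arrays fitted, slide, probe choice and each replicate left out. The number of arrays limits the precision of every value.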

Additional observations from a re-analysis of the deposited data

Results flagged for a closer look

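Among the 141 genes named here, 9 had 1 control array whose distance from the nearest other array exceeded a ratio of 0.71 to the whole range of the 5 arrays. Chance gives about 1 such gene in 20, or about 7 of 141. Some of these genes were named for their wide spread or chosen after their values were seen, so the count is a description and no test. All values are log2 ratios of liver over reference.

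Replicate 1 stood apart in 4 genes. Its value was -1.58 for Afp, where the nearest array was at -0.73, and 2.65 for Meg3, where the nearest was at 0.60. For Mt1 it was -4.69, with -4.13 next to it, and for S100a6 it was -7.40, with -6.55 next to it. Mt1 and S100a6 were far below the reference on every array, so the gap did not touch their direction.

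Replicate 3 was high in Gadd45g at 0.546, with the nearest array at -1.95, and in Phlda1 at 2.05, with the nearest at -0.02. Replicate 2 was low in Angptl4 at -0.681, with the nearest array at 1.67. Replicate 4 was high in the macrophage gene Cd5l at 7.99, with the nearest array at 6.33. Replicate 5 was low in Vps16 at -3.88, with the nearest control array at -0.68.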

How the results depend on the processing

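Over all 36477 probes, 25178 differed from the reference and 6742 differed past 2-fold. Leaving out each control in turn gave 23060 to 24339 and 6192 to 6832. With slide as a random block the counts were 22337 and 6253, with all 19 arrays in the fit 26731 and 7113, and without slide 1, an alternative chosen after seeing the data, 23266 and 6351. Asking for signal in both channels on all 5 arrays left 14839 calls of 18126 probes, since fewer probes were tested. Past 2-fold, the scanner software's processed signals gave 11455 calls (39.0% higher in liver, against 47.3%) and median centring gave 10805 (17.2% higher). The cause was not tested.

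The slide test moved most. Of 22238 probes, 2029 passed, and 6749 had an unadjusted p under 0.05. The count was 0 with processed signals, 4476 with median centring and 13211 of 21909 with all 19 arrays, a fit with more arrays per slide. It was 3281 without replicate 1, a comparison of slides 1 and 2 alone. Without replicate 2, 3, 4 or 5 it was lower, but another slide then holds 1 control array. None of these leave-out counts can be set against 2029. The median SD between control livers was 0.225. It was 0.214 to 0.230 without each replicate, 0.343 with median centring and 0.142 within slides, the last also chosen after seeing the data.

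Of 42 lists with a median, 32 lay above 0, and 32 or 33 did without each replicate. Under median centring 27 did. Among lists whose main median was larger than its SD over the arrays, those that turned below 0 there were fetal liver (-0.64), X and Y (-0.59), circadian clock (-0.49) and neutrophil (-0.56). Lists nearer 0 are not named. Among named genes called in the main fit, those that turned there were Nop10 (-0.78), Nop16 (-0.60), Rps2 (-0.31), Rps27l (-0.16), Shmt2 (-0.54) and Taldo1 (-0.41). Nop10 was also below 0 in the deposited table (-0.0757), and Tpm1 was at -0.71 as a mean of its probes. Angptl4 (1.36 with all 5) lost its call without replicate 1, without slide 1, with slide as a random block and with median centring, and Srebf2 lost its call without replicates 1, 2 or 3. No paired analysis was possible because the labels give no replicate numbers. Liver and reference were already compared within each array.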
